A study of Mus musculus with 8 samples.

Results

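Immediate early genes were followed in mouse melanoma tumours as a set of 10: *Fos*, *Fosb*, *Jun*, *Junb*, *Egr1*, *Egr2*, *Ier2*, *Ier3*, *Nr4a1* and *Dusp1*. They were taken by gene symbol, and each of the 10 matched 1 Ensembl gene among the 34745 genes listed for every library. RNA-seq was carried out on subcutaneous tumours of B16F10, an established mouse melanoma line, in mice of the C57BL/6J strain. These mice were kept on a normal diet (ND, 4 libraries, called ND 1 to ND 4) or on a high cholesterol diet (HCD, 4 libraries, called HCD 1 to HCD 4), and the injected line and the mouse strain were the same in both groups. The sources used here do not give the age and sex of the mice, the make-up of the diets, the time on them or whether each library came from its own mouse. The p-values therefore reflect spread among these libraries only, and that spread may be technical.

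Total counts ran from 14599222 to 17722093 per library. Markers of the melanocyte lineage, the lineage of the injected line, were detected for all 7 genes checked and summed to 25900 to 30100 CPM (counts scaled to a common library total after TMM normalization) in the 8 libraries. Libraries ND 2, ND 3 and ND 4 stood apart from the others: they held counts on 407 to 429 olfactory and vomeronasal receptor genes, against 8 to 13 in ND 1 and the HCD libraries. For the 10 genes and for the genes of smallest p in the lists below, the value from a fit with a term for these 3 libraries is given where it moved the log2 fold change by over 1.5 times or turned its direction. In that fit ND 1 is the only ND library outside the term, so its diet value sets the HCD libraries against ND 1 alone. It is not an adjusted diet effect, and only its size is given.

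Immediate early genes are transcribed within minutes of a signal, before any new protein is made. In most of them the serum response factor with its ternary complex partners, and factors of the CREB family, carry signals from the ERK, p38 and calcium pathways to the promoter. Their messages are also short-lived, in part through AU-rich elements in the 3′ untranslated region. The products pass the signal on: Fos and Jun proteins pair into the AP-1 transcription factor, Egr proteins are zinc finger transcription factors, Nr4a1 is an orphan nuclear receptor and Dusp1 removes phosphate from MAP kinases. In melanoma cells, where ERK signalling is often active, and in stromal cells of a tumour, these genes respond to growth factors and to stress, and they are also known to respond to the handling of fresh tissue.

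Upstream sequences of 8 of the 10 genes were read from the RefSeq promoter table (GRCm38.p6, the assembly also called mm10), those of *Egr1* and *Ier2* not being analysed here. The 6 with a match to an element known from this gene class are printed. Each is 150 bases, 5′ to 3′ on the strand of the gene, and lies upstream of the start, outside the GENCODE exons of its own gene. Those of *Egr2*, *Nr4a1* and *Dusp1* fall in introns of longer annotated transcripts. Capitals mark matches on either strand to TGACG, the core of the cyclic AMP response element (CRE), whose full form is TGACGTCA, and to the CArG box bound by serum response factor. The windows lie at chr12:85473740-85473889 (+ strand) for *Fos*, chr7:19310052-19310201 (- strand) for *Fosb*, chr8:84978749-84978898 (- strand) for *Junb*, chr10:67537719-67537868 (+ strand) for *Egr2*, chr15:101266696-101266845 (+ strand) for *Nr4a1* and chr17:26508520-26508669 (- strand) for *Dusp1*.
Fos: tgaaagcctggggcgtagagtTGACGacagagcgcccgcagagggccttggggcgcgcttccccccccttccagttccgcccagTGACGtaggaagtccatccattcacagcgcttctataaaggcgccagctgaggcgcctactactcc
Fosb: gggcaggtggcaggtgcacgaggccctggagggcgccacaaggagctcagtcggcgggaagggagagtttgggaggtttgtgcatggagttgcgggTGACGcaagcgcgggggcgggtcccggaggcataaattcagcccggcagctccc
Junb: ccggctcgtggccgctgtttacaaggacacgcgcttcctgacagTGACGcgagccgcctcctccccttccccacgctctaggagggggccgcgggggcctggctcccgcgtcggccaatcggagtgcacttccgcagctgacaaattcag
Egr2: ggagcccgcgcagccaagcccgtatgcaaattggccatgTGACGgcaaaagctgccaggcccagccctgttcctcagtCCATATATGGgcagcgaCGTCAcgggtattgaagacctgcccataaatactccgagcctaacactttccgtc
Nr4a1: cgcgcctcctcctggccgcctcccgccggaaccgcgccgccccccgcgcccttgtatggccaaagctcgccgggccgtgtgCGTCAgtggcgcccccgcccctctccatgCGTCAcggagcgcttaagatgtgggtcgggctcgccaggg
Dusp1: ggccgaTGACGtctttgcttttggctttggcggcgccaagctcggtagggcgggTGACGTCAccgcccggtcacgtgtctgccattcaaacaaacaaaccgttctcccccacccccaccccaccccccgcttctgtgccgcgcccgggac
Over the 250 bases before each annotated start, the CRE core was found in 6 of the 8 genes (*Fos*, *Fosb*, *Junb*, *Egr2*, *Nr4a1* and *Dusp1*), against 19.8% of 27025 genes in the table. The full CRE was found in *Dusp1* alone of the 8, where it contains the core on both strands, and in 1.77% of all genes. The CArG box was found in *Egr2*, and in 1.62% of all genes, while the AP-1 motif TGANTCA was in 0 of the 8 and in 7.82% of all genes. *Jun* and *Ier3* had no match to any of the 4 motifs in this window, which says only that these letters are not there.

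A second feature read in these genes was the pentamer ATTTA of AU-rich elements, counted in the 3′ untranslated region of 1 coding transcript per gene (GENCODE M21). All members but *Ier2* held at least 1 copy, with a median of 3.68 per kilobase against 1.24 over 20622 genes. By that median, most genes hold a copy too. At least 3 copies were found in 60% of the members and in 34.1% of all genes. *Ier3* had the densest set, with 5 copies in 613 bases, and *Fosb* the sparsest among those with any, with 1 copy in 2145 bases. The longer element TTATTTATT was in *Fos* and *Dusp1*, and in 7.33% of all genes. 1 site of each of these 2 genes is shown with its pentamers in capitals, which overlap by 1 base.
Fos: gttttcaATTTATTTAttaagatggat
Dusp1: agctggtccttATTTATTTAacacccc

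Compared per length, as FPKM (fragments scaled by the length of the gene and the total of the library), the 10 genes spanned a wide range of levels in these tumours. *Ier3* was the most abundant, at 84.9 ± 11.2 FPKM (SD over the 8 libraries), above 98.1% of all genes with any signal. *Nr4a1* followed at 32.9 ± 4.76 FPKM, *Junb* at 27.7 ± 4.28, *Jun* at 22.2 ± 2.52 and *Ier2* at 19.3 ± 2.71, and the ranges of neighbours in this run of 4 genes overlapped. *Fos* was lower, at 5.63 ± 1.29 FPKM, apart from both *Ier2* above and *Dusp1* below, which was at 2.61 ± 0.49 FPKM. *Egr1* at 1.99 ± 0.52 and *Fosb* at 1.8 ± 1.95 FPKM overlapped each other, and *Egr1* overlapped *Dusp1*. The *Fosb* level rests on ND 4, at 6.57 FPKM: over the other 7 libraries it was 1.12 ± 0.308 FPKM. *Egr2* was lowest in the set, at 0.212 ± 0.105 FPKM. The deposited gene lengths differ from current exon lengths for 7 of the 10 genes: *Egr1* was scaled by 7520 bases, while its exons cover 4484. With exon lengths from GENCODE, chosen after seeing this, the order of the 10 stayed the same apart from *Jun* and *Junb*, which were then both at 22.2 on that scale.

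With diet, none of the 10 genes passed the test, and 7 of the 10 were lower in HCD. In edgeR's quasi-likelihood test over 13186 genes, 0 of the 10 had a Benjamini-Hochberg adjusted p under 0.05, where 0.182% of all genes tested did. At an unadjusted p under 0.05, 5 of the 10 were lower in HCD (*Egr1*, *Fos*, *Junb*, *Fosb* and *Ier2*), against 7.49% of all genes, and 0 were higher, against 7.21%. Lower values by sign alone held for 48.9% of all genes. The 10 were chosen with earlier results of these data known, so the shares over all genes stand beside them as description only. The median log2 fold change of the 10 was -0.27, against 0.0049 for all genes tested. DESeq2 on the same counts called 1 of the 10, *Egr1* (adjusted p = 0.042), where it called 3.67% of the genes it gave an adjusted p, while limma-voom called 0 with 4 at an unadjusted p under 0.05. The summed level of the 10 was 388 to 442 CPM in the ND libraries and 352 to 361 CPM in the HCD libraries. This sum leans on the genes of highest CPM, *Ier3*, *Nr4a1*, *Jun* and *Junb*. With equal weight per gene on the log2 scale, ND 2 lay within the HCD range. Taken singly, 2 of the 10 had all HCD values below all ND values, against 4.73% of all genes tested. Like the sum, the share of counts on mitochondrial genes was higher in every ND library, at 13.7% to 14.7%, than in any HCD library, at 11.4% to 12.9%, and its part in these values was not tested. With bulk tissue, fewer cells of a type and less RNA per cell cannot be told apart.

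**Figure D1:**
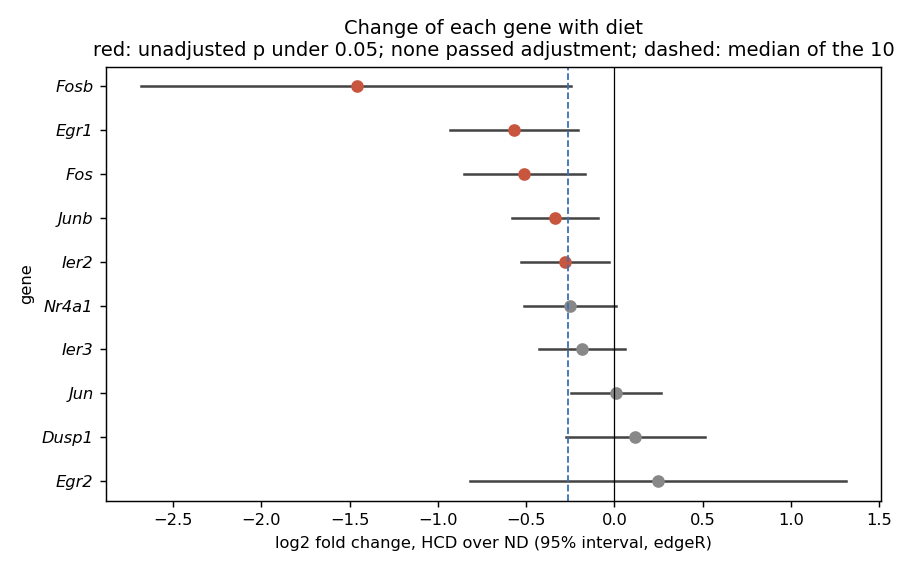
Log2 fold change of each gene (HCD over ND, x axis) with its 95% interval from edgeR; red points had an unadjusted p under 0.05 and the dashed line is the median of the 10, -0.27. The intervals of *Fosb*, *Egr1*, *Fos*, *Junb* and *Ier2* lie below 0, and those of the other genes include it.

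The Fos family pairs with Jun proteins to form AP-1. *Fos* (ENSMUSG00000021250, chromosome 12, 85473890 to 85477273, mm10) was at 26.3, 23.1, 21.7 and 29.6 CPM in ND 1 to ND 4 and at 14.5, 21.6, 14.9 and 19.7 CPM in HCD 1 to HCD 4. All HCD values lay below all ND values, which was so for 4.73% of all genes tested, but ND 3 and HCD 2 were only 1.005 times apart. That gap is smaller than the counting error of *Fos*, 4.97% of its mean in ND and 5.77% in HCD. The means were 25.2 ± 3.5 and 17.7 ± 3.51 CPM (SD, n = 4 each here and below), a change of -29.8% with a 95% interval of -44.6% to -11% (log2 fold change -0.51, SE 0.154, edgeR adjusted p = 0.172).

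*Fosb* (ENSMUSG00000003545, chromosome 7, 19302696 to 19310051), the close paralogue of *Fos*, was at 6.64, 4.22, 4.20 and 25.0 CPM in ND 1 to ND 4, and at 2.76, 3.57, 4.27 and 3.80 CPM in HCD 1 to HCD 4. Library ND 4 was by far the highest. ND 1 also lay above all HCD values, while ND 2 and ND 3 lay within the HCD range. In ND 4 the count was 360, with an exact 95% Poisson interval of 22.5 to 27.7 CPM, which covers counting error only. The group means were 10.0 ± 10.0 and 3.60 ± 0.632 CPM (log2 fold change -1.46, SE 0.548, edgeR adjusted p = 0.263), and without ND 4 the log2 fold change was -0.48 (SE 0.243, edgeR adjusted p = 0.476). The fit with the ND 2 to ND 4 term, which sets HCD against ND 1 alone, gave -0.88.

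Among all 13186 genes tested, *Fosb* stood farthest above the other libraries in ND 4, at 3.76 times the highest of the other 7. The next gene, 2900076A07Rik, was at 2.3 times, and 7 genes in all were over 2 times. Such genes were found in every library: between 1 and 10 genes per library were over 2 times the highest of the other 7. *Fos*, which shares much of its regulation, was also highest in ND 4, at 29.6 CPM, next to 26.3 CPM in ND 1. In the same library red cell markers summed to 1140 CPM (107 to 1330 over all libraries) and fibroblast markers to 45.0 CPM, the lowest of the 8 (45.0 to 269). Their part in the *Fosb* value was not tested.

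The Jun family supplies the other partner of AP-1. *Jun* (ENSMUSG00000052684, chromosome 4, 95049034 to 95052222) was at 66.9, 55.3, 80.4 and 80.6 CPM in the ND libraries and at 68.2, 72.5, 69.6 and 74.7 CPM in the HCD libraries. The ND values enclosed those of HCD, and the means, 70.8 ± 12.2 and 71.2 ± 2.91 CPM, differed by 0.629% with a 95% interval of -15.8% to 20.3% (edgeR adjusted p = 0.985). The log2 fold change of 0.0091 became 0.089 in the fit with the library term. *Junb* (ENSMUSG00000052837, chromosome 8, 84974484 to 84978718), which competes with Jun at many AP-1 targets, was at 56.5, 51.4, 68.3 and 52.3 CPM in ND and at 39.9, 47.3, 50 and 43.7 CPM in HCD. All HCD values again lay below all ND values, with ND 2 at 1.027 times HCD 3. The means of *Junb* were 57.1 ± 7.8 and 45.2 ± 4.4 CPM, a change of -20.9% (95% interval -33.2% to -6.3%, log2 fold change -0.34, SE 0.11, edgeR adjusted p = 0.204).

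Reads of both Jun genes may be mixed with those of a neighbour on the other strand, since the sources used here do not say whether counting used the strand. An exon of the antisense gene *Junos* covers 7.28% of the exon bases of *Jun*. For *Junb*, 7.52% lie under an exon of *Prdx2*, a peroxidase gene whose mean was 241 ± 13.5 CPM under ND and 225 ± 8.44 CPM under HCD (edgeR adjusted p = 0.487). *Dusp1* shares 0.332% of its exon bases with *Ergic1* in the same way.

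**Figure D2:**
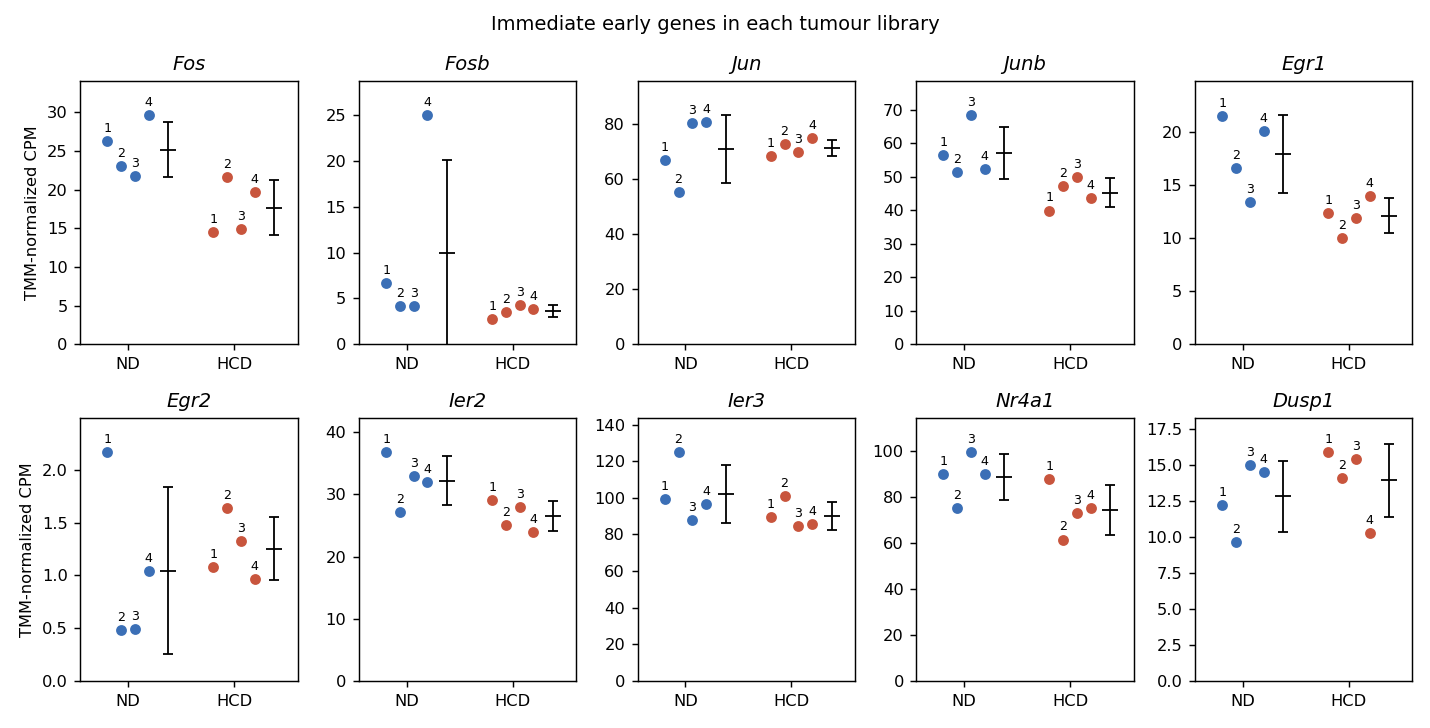
TMM-normalized CPM (y axis, from 0) of each gene in each library, numbered by replicate, with the group mean and SD in black. *Fosb* in ND 4 stands at 25.0 CPM against 2.76 to 6.64 CPM in the other 7 libraries, while HCD values of *Fos* and *Junb* lie below the ND values.

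The Egr zinc finger factors bind GC-rich sites and mark recent signalling through ERK. *Egr1* (ENSMUSG00000038418, chromosome 18, 34859823 to 34864984) was at 21.5, 16.6, 13.4 and 20.1 CPM in ND 1 to ND 4 and at 12.4, 10, 11.9 and 14 CPM in HCD 1 to HCD 4. The groups overlapped through ND 3 and HCD 4 alone. Its means, 17.9 ± 3.65 and 12.1 ± 1.65 CPM, gave the smallest p of the 10 genes, rank 484 among all tested: a change of -32.6% with a 95% interval of -47.7% to -13.3% (log2 fold change -0.57, SE 0.164, edgeR adjusted p = 0.157). Over the alternatives other than the library term its adjusted p ran from 0.042 to 0.303, and DESeq2 was the only one of them below 0.05.

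*Egr2* (ENSMUSG00000037868, chromosome 10, 67535475 to 67542188), best known from Schwann cells and lymphocytes, was near the limit of what these libraries measure, with 8 to 38 counts per library. It was at 2.17, 0.482, 0.494 and 1.04 CPM in ND and at 1.08, 1.64, 1.33 and 0.964 CPM in HCD. ND 1 was high and ND 2 and ND 3 were low, and the HCD values lay between them. The exact 95% Poisson interval of ND 1, 1.54 to 2.98 CPM, did not meet that of ND 2, 0.208 to 0.95 CPM. The difference between diets was not resolved in these libraries (log2 fold change 0.24, 95% interval -0.82 to 1.31, edgeR adjusted p = 0.862). With the library term it turned to -0.79. Leaving out ND 1 gave 0.90, and leaving out ND 2, ND 3 or HCD 2 gave 0.0040, 0.012 or 0.093.

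*Nr4a1* (ENSMUSG00000023034, chromosome 15, 101254269 to 101274795), the nuclear receptor also called Nur77, was at 90.2, 75.2, 99.7 and 90.0 CPM in ND and at 88.1, 61.6, 73.1 and 75.3 CPM in HCD. The groups overlapped, with HCD 1 and HCD 4 inside the ND range. The means were 88.8 ± 10.1 and 74.5 ± 10.9 CPM (a change of -16%, 95% interval -30% to 0.669%, edgeR adjusted p = 0.361). Its paralogue *Nr4a3*, from the wider list and singled out after its values were seen, differed the other way: 39.1, 76.7, 111 and 31.0 CPM in ND against 159, 47.7, 169 and 161 CPM in HCD. That is a log2 fold change of 1.06 (SE 0.45, edgeR adjusted p = 0.312), with the groups overlapping through HCD 2. Whether the 2 paralogues differ from each other was not tested.

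*Ier2* (ENSMUSG00000053560, chromosome 8, 84661331 to 84662852), a nuclear protein gene induced by growth factors, was at 36.8, 27.1, 33.0 and 32.0 CPM in ND and at 29.1, 25.1, 28.0 and 23.9 CPM in HCD. Only ND 2 reached into the HCD range, and the means were 32.2 ± 4.03 and 26.6 ± 2.43 CPM (a change of -17.6%, 95% interval -30.6% to -2.18%, edgeR adjusted p = 0.29). The log2 fold change of -0.28 was -0.47 in the fit with the library term. *Ier3* (ENSMUSG00000003541, chromosome 17, 35821684 to 35822923), a stress-inducible survival gene, was at 99.3, 125, 87.7 and 96.8 CPM in ND and at 89.3, 101, 84.7 and 85.6 CPM in HCD. ND 2 was its highest library, although ND 2 was the lowest for *Jun*, *Egr2* and *Dusp1*. The *Ier3* means of 102 ± 16.2 and 90.1 ± 7.37 CPM differed by less than the SD in ND but by more than that in HCD (edgeR adjusted p = 0.491). The log2 fold change of *Ier3*, -0.18, was -0.070 without ND 2.

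*Dusp1* (ENSMUSG00000024190, chromosome 17, 26505590 to 26562128) encodes the phosphatase that switches off MAP kinases in the same response. It was at 12.2, 9.64, 15 and 14.5 CPM in ND and at 15.9, 14.1, 15.4 and 10.3 CPM in HCD. The groups overlapped over nearly their whole range, and the difference was 8.49% with a 95% interval of -17.4% to 42.4% (edgeR adjusted p = 0.816). Its log2 fold change of 0.12 was 0.19 with the library term, and ran from 0.0025 without ND 2 to 0.24 without HCD 4. The low library was HCD 4 in the HCD group and ND 2 in the ND group.

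Libraries differed in which genes were high. ND 1 had the highest value of 3 genes (*Egr1*, *Egr2* and *Ier2*), ND 4 of 3 (*Fos*, *Fosb* and *Jun*), ND 3 of 2 (*Junb* and *Nr4a1*), ND 2 of *Ier3* and HCD 1 of *Dusp1*. The mean deviation of the 10 genes from their averages, on the log2 scale, was 0.28 in ND 1, -0.15 in ND 2, -0.0094 in ND 3 and 0.39 in ND 4. It was -0.17, -0.089, -0.090 and -0.17 in HCD 1 to HCD 4. ND 2 thus lay within the HCD range. Without *Fosb*, chosen after its values were seen, ND 4 was at 0.18 and ND 2 at -0.13. Spread within ND was widest for *Fosb* and *Egr2*, with coefficients of variation of 100% and 75.9%, and ran from 11.4% to 20.3% for the other 8. Counting error accounts for 24.1% of the mean for *Egr2* in ND and for at most 8.07% for the other genes there.

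**Figure D3:**
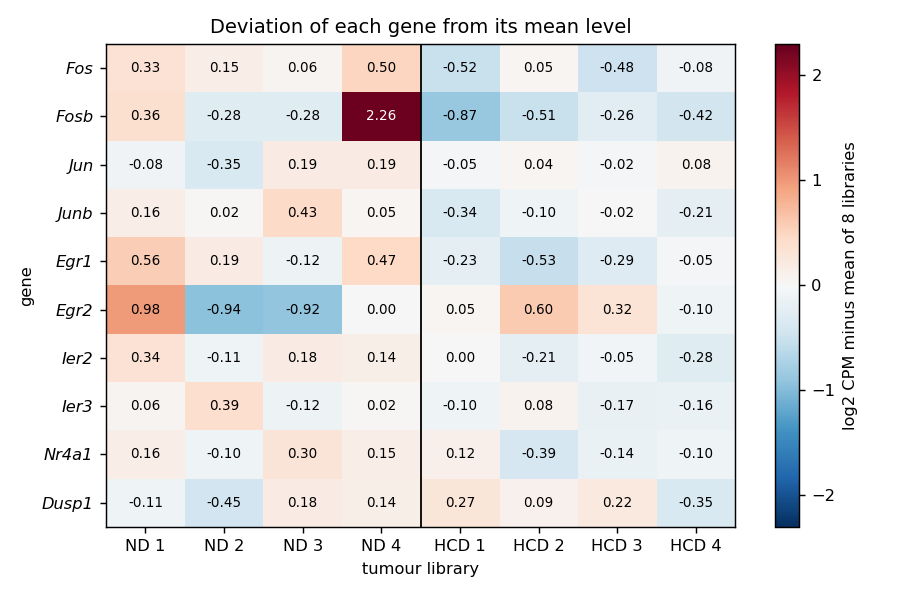
Log2 CPM of each gene minus its mean over the 8 libraries (colour and printed value), with libraries in columns and a line between ND and HCD. The 2.26 of *Fosb* in ND 4 is the largest deviation, and ND 2 and ND 3 are low for *Egr2*.

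The genes did not vary as 1 block. Of the 45 pairs among the 10 genes, 34 had a positive Pearson r over the 8 libraries, with a median r of 0.235. At an unadjusted p under 0.05, 4 pairs passed an exact permutation test, and 0 did after Benjamini-Hochberg adjustment over the 45 pairs (smallest adjusted exact permutation p = 0.405). *Ier2* and *Nr4a1* had the highest r, 0.79 (exact permutation p = 0.018), with a Spearman rho of 0.81 (exact permutation p = 0.0218, adjusted 0.516). Their r was 0.95 without the 2 libraries farthest from the median of *Ier2*, and 0.65 after the diet means were subtracted. For *Fos* and *Fosb* r was 0.73 (exact permutation p = 0.0168) and rho 0.74 (exact permutation p = 0.0458, adjusted 0.516), with r of 0.90 without the 2 farthest libraries and 0.56 after subtracting diet means. For *Fos* and *Egr1* r was 0.71 (exact permutation p = 0.0465, adjusted 0.508) and rho 0.76 (exact permutation p = 0.0368, adjusted 0.516). It was 0.77 without the 2 farthest libraries but 0.28 after subtracting diet means. For *Fosb* and *Egr1* r was 0.70 (exact permutation p = 0.0316, adjusted 0.475) and rho 0.67 (exact permutation p = 0.0831, adjusted 0.534). This relation rests on the 2 farthest libraries, without which r was 0.35, and r was 0.50 after subtracting diet means. The lowest r, -0.72, was that of *Jun* and *Ier3* (exact permutation p = 0.0564, adjusted 0.508), with a rho of -0.43 (exact permutation p = 0.299, adjusted 0.709). Their r was -0.33 without the 2 farthest libraries and -0.79 after subtracting diet means.

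Outside all lists, 12287 genes with a mean of at least 1 CPM were searched for the pattern of the set over the 8 libraries. The closest were *Dennd4a* (r = 0.97), *Ptpn23* (0.95), *Rc3h1* (0.95), *Mrpl48* (0.95) and *Irf2bp2* (0.95), each highest in ND 1 and ND 4. After diet means were subtracted, the closest were *Washc3* (0.99), *Stxbp5* (0.97), *Itgax* (0.97), *Ndor1* (0.97) and *Trip11* (0.97). These are the highest of many values over 8 points and describe likeness only. The pattern searched for leans in part on *Fosb* in ND 4, where the mean deviation was 0.39 with *Fosb* and 0.18 without it. The search was not repeated without *Fosb*.

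Other AP-1 and partner genes had a median log2 fold change of -0.15, and 9 of 11 were lower in HCD. By edgeR's adjusted p 0 of 11 passed, with 4 lower and 1 higher at an unadjusted p under 0.05. Over all genes tested, 0.182% passed, 48.9% were lower by sign, and 7.49% were lower and 7.21% higher at that unadjusted p. This list and those below were also chosen with earlier results of these data known, so the shares are description only. *Maff*, a small Maf partner, had the smallest p (log2 fold change -0.39, SE 0.0782, edgeR adjusted p = 0.0727). It was at 53.7, 50.8, 45.4 and 51.0 CPM in ND and at 36.5, 40.7, 38.2 and 37.6 CPM in HCD. All HCD values lay below all ND values, as in 4.73% of all genes tested. *Atf3*, a stress-induced relative of Fos and Jun, was at 25.7 ± 5.38 and 16.7 ± 2.01 CPM (log2 fold change -0.62, SE 0.157, edgeR adjusted p = 0.122), and *Mafk*, another small Maf, at 59.4 ± 7.41 and 46.6 ± 3.05 CPM (-0.35, edgeR adjusted p = 0.155). DESeq2 called these 3, with adjusted p of 0.00213, 0.0134 and 0.0472, where it called 3.67% of all genes it gave an adjusted p. *Batf*, an AP-1 factor of lymphocytes and dendritic cells, was the gene on the other side, at 0.795 ± 0.18 and 1.31 ± 0.164 CPM (edgeR adjusted p = 0.29).

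The wider list of immediate early and early response genes held 50 symbols, of which 47 passed the expression filter; *Egr3*, *Arc* and *Npas4*, with 85, 13 and 6 counts over all libraries, did not. Of the 47, 34 were lower in HCD and the median log2 fold change was -0.21. By edgeR's adjusted p 1 fell and 0 rose, with 10 lower and 1 higher at an unadjusted p under 0.05. Over all genes tested, 0.182% passed, 48.9% were lower by sign, and 7.49% were lower and 7.21% higher at that unadjusted p. The gene that fell was *Sgk1*, a kinase gene induced by serum and glucocorticoids, at 14.8, 15.4, 14.4 and 16.2 CPM in ND and at 10.4, 6.97, 7.79 and 7.49 CPM in HCD (log2 fold change -0.89, SE 0.141, edgeR adjusted p = 0.0459). This call was lost when any 1 library was left out (edgeR adjusted p = 0.0518 to 0.145), with log2 fold changes of -1.04 to -0.825. In the fit with the library term, against ND 1 alone, the log2 fold change was -0.85. Next by p were the clock gene *Per1* (93.1 ± 6.57 and 72.0 ± 4.44 CPM, edgeR adjusted p = 0.0788) and the Krüppel-like factor genes *Klf6* (144 ± 17.9 and 105 ± 12.3 CPM, 0.104) and *Klf4* (9.22 ± 3.02 and 4.81 ± 1.22 CPM, 0.156). The log2 fold change of *Klf4*, -0.94, was -0.13 with the library term, that is against ND 1, its lowest ND library at 5.26 CPM. *Myc*, a growth factor target in the same list, had a log2 fold change of 0.087 (edgeR adjusted p = 0.793).

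Regulators upstream of these promoters showed no common direction. Of 40 genes, 17 were higher and 23 lower, with a median log2 fold change of -0.021 and 0 called by edgeR. At an unadjusted p under 0.05, 3 were higher and 6 lower, against 7.21% and 7.49% of all genes tested. Of all genes tested, 48.9% were lower by sign and 0.182% were called. *Srf*, the serum response factor itself, had a log2 fold change of -0.030 (edgeR adjusted p = 0.927). *Crem*, a CREB family gene whose short ICER form represses CRE promoters, had the smallest p. It was at 8.81, 7.17, 7.41 and 9.09 CPM in ND and at 13.4, 11.1, 11 and 12.7 CPM in HCD (log2 fold change 0.57, SE 0.132, edgeR adjusted p = 0.104, DESeq2 adjusted p = 0.0149). Gene counts do not tell the forms of *Crem* apart. The receptor tyrosine kinase gene *Met* was at 704 ± 69.8 and 856 ± 78.4 CPM (edgeR adjusted p = 0.197), the kinase gene *Braf* at 65.9 ± 8.19 and 53.9 ± 1.91 CPM (0.199) and *Mrtfb*, a cofactor of serum response factor, at 46.7 ± 2.86 and 40.3 ± 1.59 CPM (0.231). With the library term the log2 fold change of *Braf* went from -0.29 to -0.49 and that of *Mrtfb* from -0.21 to -0.34.

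**Figure D4:**
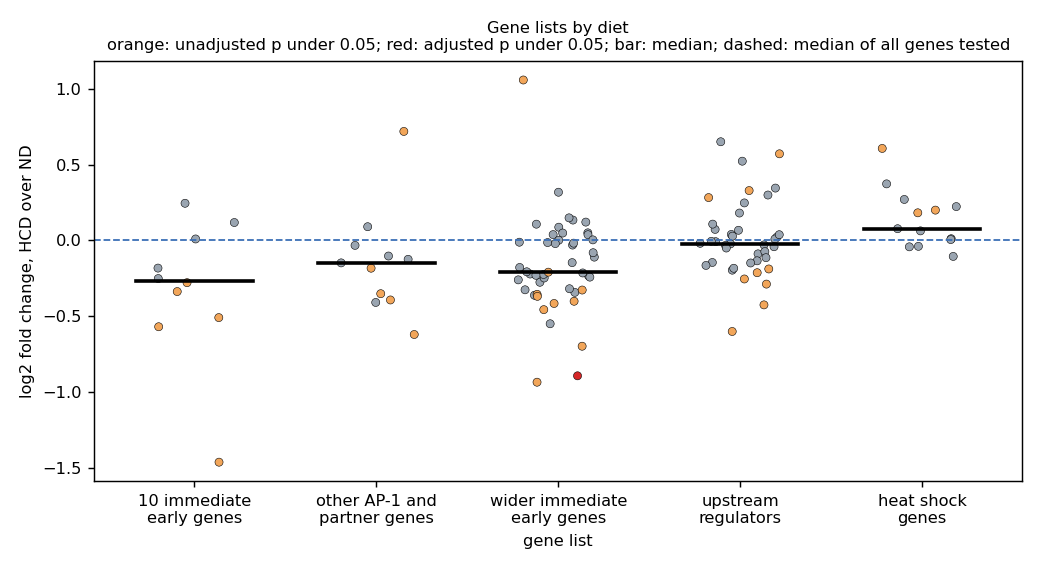
Log2 fold change (HCD over ND, y axis) of every tested gene in 5 lists, with list medians as bars and the median of all genes as the dashed line. The medians are -0.27, -0.15, -0.21, -0.021 and 0.077 from left to right, and the red point is *Sgk1*.

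Heat shock genes also respond to stress and handling, and the part of handling in the values of either list was not tested. Of the 13 heat shock genes, 10 were higher in HCD, with a median log2 fold change of 0.077 and 0 called by edgeR. At an unadjusted p under 0.05, 3 were higher and 0 lower, against 7.21% and 7.49% of all genes tested. Of all genes tested, 48.9% were lower by sign and 0.182% were called. *Hsph1*, a chaperone gene, was at 32.8 ± 2.81 and 50 ± 5.44 CPM (log2 fold change 0.61, SE 0.101, edgeR adjusted p = 0.0506) and passed by DESeq2 (adjusted p = 5.19e-05) and without the expression filter (edgeR adjusted p = 0.0186). It did not pass with the replicate block (0.202) or any 1 library left out (0.076 to 0.15), nor by limma-voom or with DESeq2 size factors. *Hspa8*, *Hspd1* and *Dnaja1* had log2 fold changes of 0.18, 0.20 and 0.22 (edgeR adjusted p = 0.235, 0.309 and 0.345). With the library term *Hspd1* was at 0.34 and *Dnaja1* at 0.37, and *Hspd1* was at 0.13 without HCD 4.

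Markers of other cell types were measured in the same libraries. Macrophage markers were higher in HCD in 8 of 8 genes, with a median log2 fold change of 0.59 and summed levels of 296 to 492 CPM in ND and 436 to 581 CPM in HCD. Endothelial markers were higher in 5 of 6, with a median of 0.29 (248 to 309 and 231 to 306 CPM), and pericyte and smooth muscle markers in 4 of 5, with a median of 0.335 (36.4 to 59.8 and 52.5 to 70.8 CPM). Fibroblast markers were higher in 5 of 5 tested, with a median of 0.70 (45.0 to 251 and 59.5 to 269 CPM), and red cell markers in 5 of 5, with a median of 0.76 (109 to 1140 and 107 to 1330 CPM). All 4 tested skeletal muscle markers were lower in HCD, with a median of -3.20 (3.19 to 69.8 and 2.06 to 5.02 CPM). T cell and neutrophil markers summed to at most 6.48 and 4.75 CPM, and adipocyte markers to at most 0.482 CPM in ND and 7.14 CPM in HCD. Keratinocyte markers reached 0.113 CPM, with *Krt5* and *Krtdap* at 0 in every library. In these lists 0 genes passed edgeR's adjusted p, while *Mitf* was called, higher in HCD, among the 7 melanocyte markers, whose median was 0.029. Of all genes tested, 0.182% passed and 48.9% were lower in HCD by sign. The part of these cell types in the values of the 10 genes was not tested.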

How the data were processed

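RNA-seq was measured in 8 tumour libraries, grouped by the diet and number in their labels. The deposited files give whole-number counts per Ensembl gene with no normalization, per the file headers, and FPKM, which the authors scaled by a gene length and the total count of the library, as the values show. CASAVA 1.8, TopHat2 2.0.9, edgeR, HTSeq and mm10 stand in the submitters' processing notes, with no role or order. Annotation and strand setting: not given in the sources used here. Genes were named from GENCODE M21 (34344 of 34745 matched).

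Counts were fitted with edgeR 4.0.16 (limma 3.58.1, R 4.3.3): TMM factors, expression filter (minimum count 10, minimum total 15), quasi-likelihood F-test with diet as the only term, and Benjamini-Hochberg adjustment over 13186 genes at a threshold of 0.05. Log2 CPM used a prior count of 2. The fit was tested on simulated counts. Intervals are 95%, from an SE derived from the F statistic. The depth of 14599222 to 17722093 counts gives a counting error of 2.46% to 24.1% of the mean per gene in ND. Alternatives were DESeq2 1.42.0, limma-voom, DESeq2 size factors, no filter, a replicate block, a term for ND 2 to ND 4 and leaving out each library.

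The members and lists were chosen with earlier results of these data known. Named genes were all members, up to 4 genes with the smallest p of each other list plus those passing, and the 5 genes outside the lists most correlated with the members' mean, with and without the diet means. Further genes are named as members of the lists, and *Nr4a3* after its values were seen. Motifs were counted in the 250 bases before each start. Promoter sequences of *Egr1* and *Ier2* were not analysed here.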

Additional observations from a re-analysis of the deposited data

Results flagged for a closer look

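*Fosb* in ND 4 was at 25.0 CPM, against 4.20 to 6.64 CPM in the other 3 ND libraries. The gap to the nearest of them was 0.883 of the group's range, above the limit of Dixon's test for 4 samples. *Per1* in HCD 1, at 78.7 CPM, lay above the 69.3 to 70.3 CPM of the other HCD libraries (gap 0.893 of the range). *Itgax* in HCD 1, at 10.5 CPM, lay below the 11.8 to 12.1 CPM of the others (gap 0.836). With 72 groups examined, chance gives about 1 in 20, or 3.6, and 3 were found.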

How the results depend on the processing

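The fit with the library term (for ND 2 to ND 4) leaves ND 1 alone on the ND side and is not read for calls. The number of immediate early genes called was 0 in the first fit and in every other alternative except DESeq2, where it was 1 (*Egr1*). With DESeq2 the wider list went from 1 to 4 of 47 genes and the upstream regulators from 0 to 1 of 40. DESeq2 called 3.67% of all genes it gave an adjusted p. The wider list had 0 with the replicate block and 0 when any library was left out, while the upstream regulators had 0 in each of these. Over all genes the count of 24 became 93 without the expression filter, 437 with DESeq2, 0 with the replicate block (edgeR, 1634 genes at an unadjusted p under 0.05), 5 with the term and 0 to 12 with 1 library left out. The median of the 10 genes stayed between -0.40 (term) and -0.23 (without ND 1) over all alternatives, and from -0.34 to -0.23 with 1 library left out.

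Directions turned for genes whose log2 fold change was smaller than its SE. *Jun* ran from -0.092 to 0.077 with 1 library left out, with 3 such fits below 0. With the term, *Egr2* was at -0.79, *Ndor1* at -0.095, *Stxbp5* at -0.22 and *Trip11* at -0.17. With 1 library left out, *Ndor1* ran from -0.061 to 0.198, *Stxbp5* from -0.084 to 0.144 and *Trip11* from -0.054 to 0.166. The values with the term set HCD against ND 1 alone. Why single libraries moved the other fits was not tested. Same-numbered libraries had deviations correlated at 0.0249, -0.0113, -0.0676 and 0.107. Differently numbered libraries were not compared, so whether the shared number marks a pair was not tested. Under the replicate block *Fosb* was at -1.07 and *Sgk1* lost its call (edgeR adjusted p = 0.202). For *Egr2*, with 8 to 38 counts per library, the coefficient of variation was 75.9% in ND, well above its counting error of 24.1%. In HCD it was 23.8%, near its counting error of 21.7%.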
